A study of Mus musculus with 27 samples.

Results

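The mesoderm and cardiac transcription factors described here are Mesp1, Mixl1, Eomes, Hand1, Hand2, Gata4, Gata6, Isl1, Nkx2-5 and Tbx20. They were taken by name, with each array probe matched to a gene symbol through its RefSeq accession, and all 10 were on the array, among 37208 measured genes and transcripts of which 20145 had a symbol. One probe was kept for each gene, the brightest over all arrays, and only Eomes and Tbx20 had further probes.

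Mesodermal progenitors of the embryo pass through a short phase in which the T-box factor EOMES, the homeobox factor MIXL1 and the basic helix-loop-helix factor MESP1 are made and then switched off. HAND1, HAND2, GATA4, GATA6, ISL1, NKX2-5 and TBX20 act later, in heart, smooth muscle and other lateral mesoderm, and many of them bind DNA together. FLK1-positive mesoderm can give endothelium, blood, smooth muscle and heart muscle, so these genes report on the mesodermal side of a culture that is directed to blood.

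The study followed mouse embryonic stem cells into blood precursors while blocking the transcription factor AP-1, a dimer of FOS and JUN family proteins. Every group carried the same cassette, a doxycycline-inducible, Flag-tagged dominant negative FOS (dnFOS) in A2lox cells, which pairs with JUN proteins and keeps them from DNA. The inducer, doxycycline (DOX), was given at 1 µg/ml. The groups without it were FLK1+ untreated (cells purified from embryoid bodies and not cultured further), FLK1+ 5h untreated, d1 BC untreated (the culture after 1 day), SM untreated (smooth muscle), HE1 untreated and HE2 untreated (hemogenic endothelium), and HP untreated (hematopoietic progenitors). The groups with DOX were FLK1+ 5h DOX (5 h), d1 BC DOX (1 day), and SM DOX, HE1 DOX, HE2 DOX and HP DOX (2 days). HE1 cells were sorted as KIT+ TIE2+ CD41-, HE2 cells as KIT+ TIE2+ CD41+ and HP cells as KIT+ TIE2- CD41+, and the gate of the SM cells is not given in the sources used here. Each group had 2 arrays except SM untreated with 3, which makes 27 arrays in 13 groups. DOX was not given to cells that lack the cassette, so an effect of dnFOS and one of the drug cannot be told apart, and a DOX effect was not measured in FLK1+ cells before culture. The labels do not say that replicates came from separate cultures, so p-values measure the spread between these arrays, which may be technical. Whether the Fos probe reads the dnFOS transcript is not given in the sources used here, so its induction was not checked.

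A level is the log2 signal of a probe minus the 75th percentile of its array, so 0 is the 75th percentile and 1 unit is a 2-fold step. Levels of different genes come from different probes and are not set against each other. The 75th percentile itself lay between 73.2 and 636 signal units and was lowest in HE2 untreated replicate 1, and 46.9% to 89.6% of probes were well above background. The arrays lay on 5 slides, with 7, 3, 8, 8 and 1 arrays. Of the genes of the sort gates, Kdr (FLK1) was at 4.39 ± 0.40 in FLK1+ untreated (SD, n = 2), Kit was at 3.65 ± 0.26 in HE1 untreated and 4.84 ± 0.06 in HP untreated (SD, n = 2). RNA of genes that a gate selects against was also above background, at lower levels: Itga2b (CD41) was at 0.87 and 1.33 in the CD41- HE1 untreated and 3.21 ± 0.79 in HE2 untreated, and Tek (TIE2) at -0.42 ± 1.41 in the TIE2- HP untreated and 2.48 ± 0.37 in HE1 untreated. Acta2, the smooth muscle actin, was at 9.58 ± 0.42 in SM untreated (SD, n = 3). In these bulk samples, fewer cells of a type and less RNA per cell cannot be told apart.

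Promoter sequence was at hand for 6 of the 10 genes, Mesp1, Eomes, Hand2, Tbx20, Isl1 and Nkx2-5, as the 250 bases before a RefSeq transcript start in build GRCm38.p6. The arrays were designed on an older build, so no probe coordinates are given. Windows of 4 genes are shown. Mesp1 and Eomes were taken because they fell the most of the 6 from FLK1+ to SM and HE1. Hand2 was taken as the gene called higher, and Tbx20 because it fell from HE1 to HE2 with and without DOX. The windows are chr7:79793591-79793840 on the minus strand for Mesp1, chr9:118477939-118478188 on the plus strand for Eomes, chr8:57320733-57320982 on the plus strand for Hand2 and chr9:24774304-24774553 on the minus strand for Tbx20, each printed 5′ to 3′ along its gene with motif matches in capitals.
Mesp1: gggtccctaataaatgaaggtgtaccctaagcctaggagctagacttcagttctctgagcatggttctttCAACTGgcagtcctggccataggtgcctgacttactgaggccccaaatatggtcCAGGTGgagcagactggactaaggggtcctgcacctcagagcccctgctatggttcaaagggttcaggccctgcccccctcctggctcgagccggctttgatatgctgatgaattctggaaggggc
Eomes: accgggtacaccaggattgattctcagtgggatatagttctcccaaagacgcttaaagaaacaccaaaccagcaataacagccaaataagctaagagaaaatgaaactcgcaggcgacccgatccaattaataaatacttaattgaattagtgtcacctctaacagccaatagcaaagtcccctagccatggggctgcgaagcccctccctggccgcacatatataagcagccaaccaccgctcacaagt
Hand2: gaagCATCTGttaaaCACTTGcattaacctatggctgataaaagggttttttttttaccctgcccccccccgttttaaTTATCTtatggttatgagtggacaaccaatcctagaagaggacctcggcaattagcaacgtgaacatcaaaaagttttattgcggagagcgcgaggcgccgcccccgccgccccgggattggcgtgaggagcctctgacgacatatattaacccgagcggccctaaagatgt
Tbx20: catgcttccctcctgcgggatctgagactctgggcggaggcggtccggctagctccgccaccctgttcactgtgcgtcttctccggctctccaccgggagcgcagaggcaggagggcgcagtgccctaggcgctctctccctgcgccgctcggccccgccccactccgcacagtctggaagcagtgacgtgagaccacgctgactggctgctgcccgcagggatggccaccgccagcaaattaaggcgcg
Searched on both strands were the AP-1 site TGANTCA, the TEAD site GGAATG, the T-box half-site GGTGTGA, the GATA site AGATAA and the E-box CANNTG, which basic helix-loop-helix factors such as MESP1 and the HAND proteins bind. The Mesp1 window held the E-boxes CAACTG and CAGGTG, 180 and 126 bases before the start. The Hand2 window held the E-boxes CATCTG and CACTTG, 246 and 235 bases before the start, and a GATA match, TTATCT, 172 bases before it. The windows of Eomes and Tbx20 held none of the 5 motifs, and no AP-1, TEAD or T-box match was present in the windows of the 6 genes. Among all 32851 windows of this length, 6.7% held the AP-1 site, 12.6% the TEAD site, 3.3% the T-box half-site, 10% the GATA site and 66.2% an E-box. No motif overlapped another here, and a missing match says only that these letters were not in these 250 bases.

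**Figure D1:**
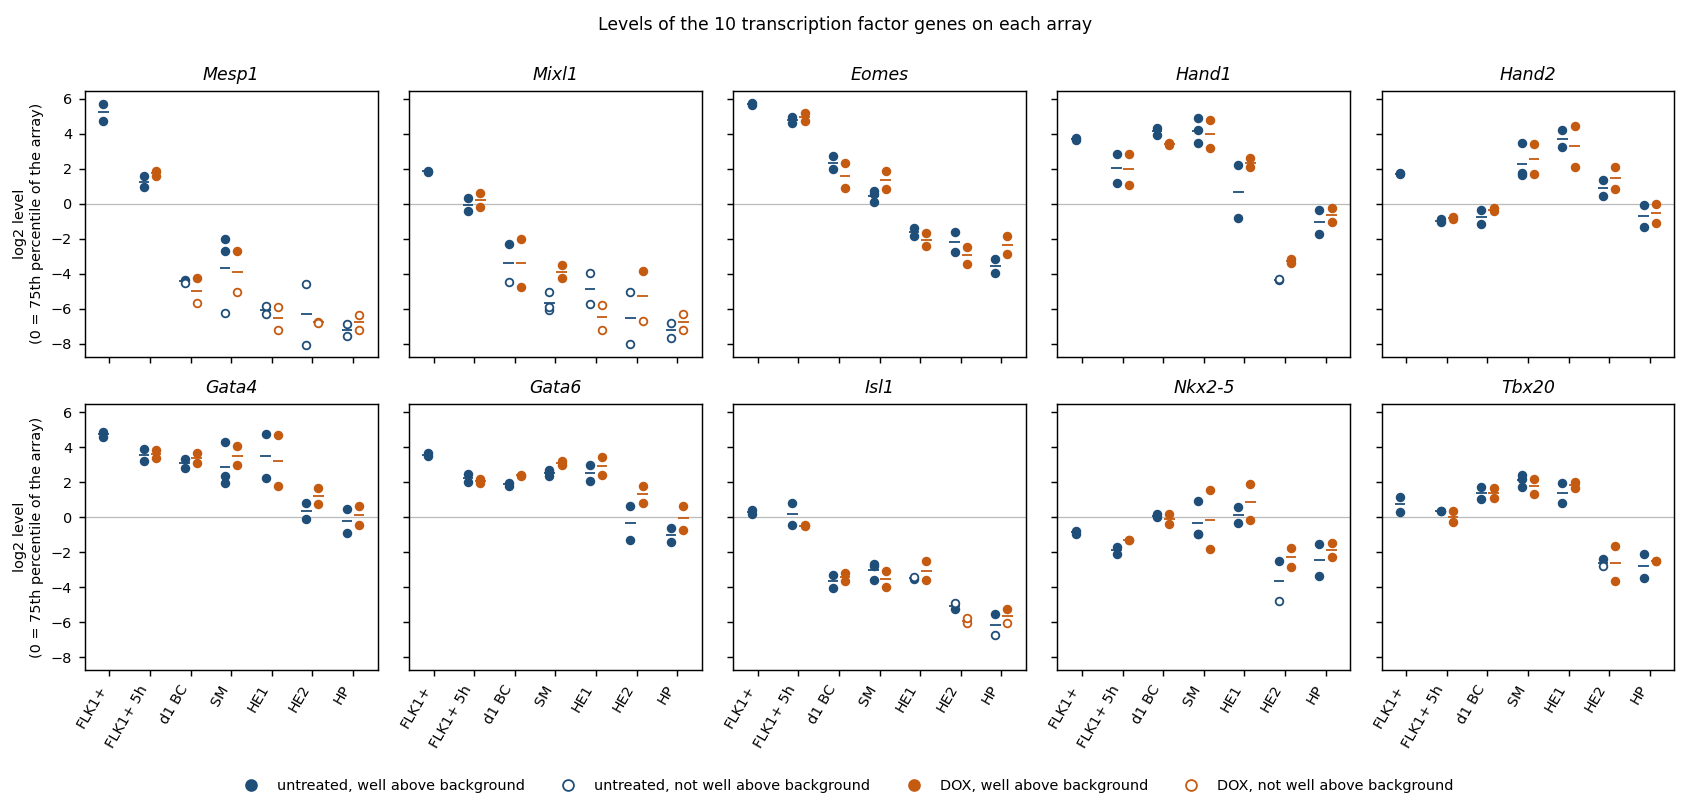
Level of each gene on each of the 27 arrays, on a log2 scale where 0 is the 75th percentile of the array, by population, with untreated arrays in blue and DOX arrays in orange. Short bars are group means and open circles are arrays on which the probe was not well above background; Mesp1 goes from 5.24 in FLK1+ untreated to open circles in HE1, HE2 and HP, while Hand2 is highest in HE1 untreated at 3.72.

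Mesp1, a basic helix-loop-helix factor of nascent mesoderm, was highest in FLK1+ untreated. It was at 5.73 and 4.75 on the FLK1+ untreated arrays, at 1.57 and 0.95 after 5 h of culture and at -4.32 and -4.49 in d1 BC untreated, where only the first array was well above background. In SM untreated it was at -2.02, -6.23 and -2.68, with the second array not above background. Mesp1 was not well above background on any HE1, HE2 or HP array, with or without DOX. The FLK1+ arrays and the FLK1+ 5h arrays stood apart from each other and from all later groups, and the later groups overlapped with their neighbours in the order of means except that both d1 BC untreated arrays lay above both HE1 untreated arrays.

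Mixl1, a homeobox gene of the primitive streak, followed the same order at its start. It was at 1.84 and 1.88 in FLK1+ untreated, at 0.32 and -0.40 in FLK1+ 5h untreated and at -2.29 and -4.48 in d1 BC untreated. On all 3 SM untreated arrays and on all HE1 and HP arrays it was not well above background, and of the 4 HE2 arrays only HE2 DOX replicate 2, at -3.82, was. Mixl1 was well above background on 12 of the 27 arrays and Mesp1 on 11.

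Eomes, the T-box factor that acts upstream of Mesp1 in cardiac mesoderm, fell more slowly and stayed well above background on all 27 arrays. Its levels were 5.78 and 5.68 in FLK1+ untreated, 4.97 and 4.64 in FLK1+ 5h untreated, 2.72 and 2.01 in d1 BC untreated, and 0.56, 0.77 and 0.09 in SM untreated. They were -1.84 and -1.35 in HE1 untreated, -1.57 and -2.76 in HE2 untreated, and -3.93 and -3.13 in HP untreated. Every untreated group stood apart from the one before it in this order except HE2, which overlapped with HE1. The second Eomes probe was not well above background in HE1, HE2 or HP and was also called from FLK1+ to SM (-5.69), from FLK1+ to HE1 and from d1 BC to HE1, the last 2 with no size given since it was dim in HE1.

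Isl1, a LIM-homeodomain gene of second heart field progenitors, was at 0.40 and 0.19 in FLK1+ untreated and at 0.79 and -0.46 after 5 h, and these groups overlapped. It was at -3.30 and -4.04 in d1 BC untreated, at -2.78, -3.61 and -2.68 in SM untreated and at -3.40 and -3.54 in HE1 untreated, which also overlapped among themselves and where 1 of the 2 HE1 arrays was not well above background. Its levels in HE2 untreated, -4.92 and -5.24, and in HP untreated, -6.70 and -5.55, were well above background on 1 array of each.

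Between FLK1+ cells and the sorted populations of the later culture, these 4 genes were the ones called lower in both SM and HE1. Gata6 was called in neither, though both FLK1+ arrays (3.64 and 3.49) lay above every untreated SM and HE1 array. From FLK1+ to SM, 4 of 10 genes were called lower, where 2.52% of all genes tested were. A call needed a limma p under 0.05 after Benjamini-Hochberg adjustment over all genes tested, and a change of at least 2-fold. Mesp1 fell by 8.88 on the log2 scale (SE 1.06, adjusted p = 3.18e-05), with 2 of the 3 SM arrays above background, and Eomes by 5.26 (SE 0.57, adjusted p = 1.09e-05). Isl1 fell by 3.32 (SE 0.53, adjusted p = 0.000518), and Mixl1 was at least 95.6-fold lower, a bound since no SM untreated array was above background (adjusted p = 9.72e-05). From FLK1+ to HE1, 5 of 10 were called lower, against 4.76% of all genes. Mesp1 was at least 701-fold lower and Mixl1 at least 48.6-fold lower (adjusted p = 9.03e-06 and 0.00057). Eomes fell by 7.32 (SE 0.62, adjusted p = 2.41e-06), Isl1 by 3.77 (SE 0.58, adjusted p = 0.000343; 1 of 2 HE1 arrays above background) and Hand1 by 3.01 (SE 0.85, adjusted p = 0.0287). These comparisons share the FLK1+ untreated arrays. Mesp1 and Mixl1 in both comparisons, and Isl1 in that with HE1, entered the test through FLK1+, where they are high, and were not tested when detection was required in both groups, so the counts are a description. FLK1+ and HE1 arrays share no slide, so for that comparison slide and group cannot be told apart; within the slide that held FLK1+ and SM arrays, the differences were -7.26 for Mesp1, -5.17 for Eomes and -3.08 for Isl1. The mean of 8 fibroblast markers (Col1a1, Col1a2, Col3a1, Thy1, Postn, Lum, Dcn and Twist2) was -2.36 and -2.32 in FLK1+ untreated. It was 3.36, 1.58 and 3.53 in SM untreated and 2.03 and -1.34 in HE1 untreated. The authors count Col1a1 among genes normally induced in day 1 culture, SM and HE1 cells, so the list does not mark fibroblasts alone. Its part in the fall was not tested.

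**Figure D2:**
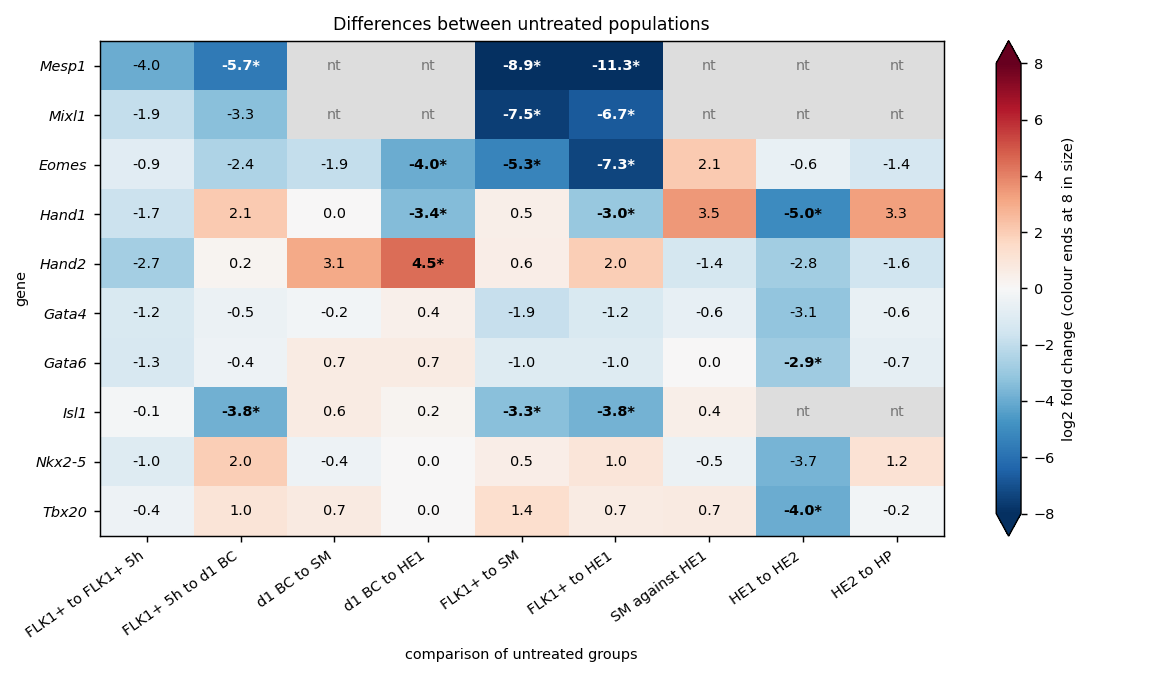
Log2 fold change of each gene, second population minus first (SM minus HE1 for "SM against HE1"), between untreated groups, from the limma fit. An asterisk marks adjusted p under 0.05 with at least a 2-fold change and nt marks a gene not tested; the called values are in 5 of the 9 comparisons and Hand2 from d1 BC to HE1, 4.49, is the single positive one. For probes dim in the second group the cell is the fitted value, not a bound.

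In the first 5 h of culture all 10 genes had negative differences and none passed the limma test (3 had an unadjusted p under 0.05), while 2.84% of all genes tested were called in this step. The median of the 10 was -1.25, against -0.18 over all genes, and 8 of the 10 were lower on both cultured arrays than on both FLK1+ arrays, as were 33.4% of all genes. Mesp1 differed by -3.98 (SE 1.16, adjusted p = 0.0747) and Hand2 by -2.70 (SE 0.81, adjusted p = 0.0889), and Hand2 was at 1.75 and 1.72 before culture and -1.04 and -0.89 after it. These 2 values passed in some other analyses of the same arrays, Mesp1 in 11 of 41 and Hand2 in 8 of 41.

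From 5 h to day 1, 2 of 10 genes were called lower, against 0.882% of all genes. Mesp1 fell by 5.67 (SE 1.16, limma adjusted p = 0.0175) and Isl1 by 3.83 (SE 0.58, adjusted p = 0.00237). Eomes was at -2.44 and did not pass (adjusted p = 0.0568). The Mesp1 call rests on single arrays, since it was lost without d1 BC untreated replicate 1, without replicate 2 or without FLK1+ 5h untreated replicate 1 (adjusted p up to 0.23), and the Isl1 call was lost without d1 BC untreated replicate 2 or FLK1+ 5h untreated replicate 1 (up to 0.0808), and also with quantile normalization or a fit of only the groups compared. The same step between the DOX arrays called 3 of 10 lower where 0.745% of all genes were. It shares no array with the untreated step but is not independent of it. The d1 BC arrays of the same replicate number lay on the same slide with and without DOX. Their deviations from the group means correlated at 0.59. Within the slide that held untreated arrays of both groups, Isl1 differed by -3.58, and Mesp1 was not well above background on the d1 BC array of that slide. Mesp1 was above background on 1 of 2 d1 BC arrays both without and with DOX. Under DOX Mesp1 fell by 6.71 (adjusted p = 0.00578), Isl1 by 2.96 (adjusted p = 0.0121) and Eomes by 3.35 (adjusted p = 0.00885).

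Hand1 and Hand2 encode closely related basic helix-loop-helix factors of the heart and lateral mesoderm, and their levels took different courses. Hand1 was at 3.68 and 3.76 in FLK1+ untreated, 1.21 and 2.84 in FLK1+ 5h untreated, 3.95 and 4.35 in d1 BC untreated, and 4.20, 3.48 and 4.88 in SM untreated. Its HE1 untreated arrays were far apart, at 2.21 and -0.79, while HE1 DOX was at 2.64 and 2.10. Hand1 was lowest in HE2 untreated, at -4.30 and -4.37 with the first array not above background, and was at -1.74 and -0.36 in HP untreated. SM overlapped with d1 BC, and HE1 with FLK1+ 5h above it and with HP below it, while HE2 stood apart.

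Hand2 had its lowest group means in cultured cells before sorting, at -1.04 and -0.89 in FLK1+ 5h untreated and -1.17 and -0.36 in d1 BC untreated. It was highest in HE1 untreated, at 3.24 and 4.21, with SM untreated at 1.75, 3.46 and 1.67, HE2 untreated at 0.46 and 1.37, and HP untreated at -1.34 and -0.03, overlapping with d1 BC. HE1 and SM overlapped, and both lay above every FLK1+ 5h and d1 BC untreated array.

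From d1 BC to HE1, Hand2 rose by 4.49 (SE 0.81, limma adjusted p = 0.00513), 1 of 8 genes tested called higher where 1.83% of all genes were. Eomes fell by 3.96 (SE 0.62, adjusted p = 0.0017) and Hand1 by 3.44 (SE 0.85, adjusted p = 0.0331), 2 of 8 called lower where 1.3% of all genes were. Under DOX, Hand2 rose by 3.61 (adjusted p = 0.0144) and Eomes fell by 3.65 (adjusted p = 0.00219), 1 gene in each direction of 9 tested, against 2.52% higher and 1.59% lower of all genes. Hand1 under DOX was at -1.07 (adjusted p = 0.65), and whether its step differed between untreated and DOX cells was not tested directly. The Hand1 call from d1 BC to HE1 was lost without d1 BC untreated replicate 1 or replicate 2 or HE1 untreated replicate 2, and with quantile normalization, no filter on dim probes, slide as a fixed block or a fit of only the groups compared. Its call from FLK1+ to HE1 was lost without either FLK1+ array or HE1 untreated replicate 2, and without the last the difference was -1.51. This call was also lost with quantile normalization, the authors' processed values, slide as a fixed or random block or only the groups compared. The Hand2 call was lost without HE1 untreated replicate 2 or d1 BC untreated replicate 1 (up to 0.0801) and, like that of Eomes (0.0701), with only the groups compared. The d1 BC and HE1 arrays share no slide, so slide and group cannot be told apart. Endothelial markers averaged -0.36 and -0.23 in d1 BC untreated and 3.33 and 3.80 in HE1 untreated, with 2 of 8 called higher, and smooth muscle markers 3.25 and 3.42 against 2.00 and 1.18, with 3 of 8 tested called lower. Fibroblast markers averaged 0.28 and 0.23 in d1 BC untreated, and the part of these lists was not tested.

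From d1 BC to SM none of 8 genes tested passed in limma (2 had an unadjusted p under 0.05), with 0.251% of all genes called, 0.221% higher and 0.0303% lower, and Hand2 had the largest difference at 3.06 (adjusted p = 0.148), which passed in 5 of 41 other analyses, slide as a random block among them. Between SM and HE1, which were sorted from the same culture stage, none of 8 passed either (2 at unadjusted p under 0.05), with 0.568% of all genes called. Hand1 was higher in SM by 3.48 (limma adjusted p = 0.05003, just above the threshold) and Eomes by 2.07 (adjusted p = 0.101). The HE1 untreated arrays were far apart for Hand1, at 2.21 and -0.79, and within slides Hand1 was higher in SM by 2.68 and 4.27. The second Eomes probe, dim in HE1, was called in a limma fit over all probes (adjusted p = 0.0407), where the first was not (adjusted p = 0.127). Under DOX, Eomes by its first probe was 3.42 higher in SM than in HE1 and passed (adjusted p = 0.0424), 1 of 9 genes where 0.0493% of all genes were called higher. In the fit over all probes neither Eomes probe passed under DOX (adjusted p = 0.0630 for the first and 0.0767 for the second). From d1 BC to SM under DOX none of 9 passed (1 at unadjusted p under 0.05), with 0.0571% of all genes called. The untreated SM arrays differed among themselves. The mean of 8 endothelial marker genes was -0.90, 1.88 and -0.69, and that of 8 fibroblast markers 3.36, 1.58 and 3.53. That of 6 pluripotency markers was 0.43, -2.31 and -0.04, and -0.05 and 0.12 in FLK1+ untreated. Replicate 2 stood apart in each of these lists, and Mesp1 was above background on replicates 1 and 3 and not on replicate 2. Hand1 passed in SM against HE1 in 10 of 41 other analyses, that without SM untreated replicate 2 among them, and the part of these markers in the differences was not tested.

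Gata4 and Gata6, zinc finger factors of heart, endoderm and lateral mesoderm, were highest in FLK1+ untreated and lowest in HP untreated. Gata4 was at 4.90 and 4.56 in FLK1+ untreated, 3.20 and 3.88 after 5 h, 2.80 and 3.35 in d1 BC untreated, and 1.95, 4.30 and 2.37 in SM untreated. It was at 2.25 and 4.75 in HE1 untreated, -0.12 and 0.84 in HE2 untreated and -0.89 and 0.46 in HP untreated. The middle groups overlapped, from FLK1+ 5h to SM, and both HE2 arrays lay below them.

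Gata6 was at 3.64 and 3.49 in FLK1+ untreated, 2.49 and 2.03 after 5 h, 1.81 and 1.94 in d1 BC untreated, and 2.34, 2.72 and 2.59 in SM untreated. It was at 2.08 and 3.01 in HE1 untreated, -1.28 and 0.65 in HE2 untreated and -1.40 and -0.63 in HP untreated. FLK1+ stood apart above the rest, SM, HE1 and FLK1+ 5h overlapped, and HE2 and HP overlapped with each other below every other group. The 13 group means of Gata4 and Gata6 had a Pearson r of 0.952, given as a description, since the points share arrays. Markers of endoderm, which also uses both genes, averaged -3.96, -1.32 and -3.735 on the SM untreated arrays, with 5, 9 and 5 of 10 above background. In HE1 untreated they averaged -2.90 and -1.67, with 3 and 6 of 10 above background. In both groups the second array had the highest endoderm mean and the highest Gata4. The part of these markers was not tested.

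Nkx2-5, a homeobox gene of cardiac progenitors, was at -0.78 and -0.94 in FLK1+ untreated, -2.12 and -1.68 after 5 h and 0.09 ± 0.13 in d1 BC untreated (SD, n = 2). It was at -0.97, 0.94 and -0.96 in SM untreated, -0.34 and 0.57 in HE1 untreated, -4.76 and -2.49 in HE2 untreated and -3.34 and -1.53 in HP untreated. The HE1, d1 BC, SM and FLK1+ groups each overlapped with the next in the order of means, and both HE2 arrays lay below every array of those groups.

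Tbx20, a T-box gene of the developing heart, was at 0.31 and 1.17 in FLK1+ untreated, 0.34 on both arrays after 5 h, 1.07 and 1.71 in d1 BC untreated and 2.40, 1.75 and 2.18 in SM untreated. It was at 1.97 and 0.82 in HE1 untreated, -2.80 and -2.38 in HE2 untreated and -3.49 and -2.13 in HP untreated. The 5 populations up to HE1 overlapped with their neighbours, and HE2 and HP stood apart below them.

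From HE1 to HE2, populations that the sort told apart by the CD41 protein, Hand1, Gata6 and Tbx20 fell and the other cardiac and lateral mesoderm genes had negative differences. Hand2, Gata4, Gata6 and Eomes were above background on all arrays of both populations. Hand1, Tbx20 and Nkx2-5 were above it on 1 of the 2 HE2 arrays, entered the test through HE1, where they are high, and were not tested when detection was required in both groups. Of the 7 genes tested, 3 were called lower, where 1.81% of all genes were. Hand1 fell by 5.05 (SE 0.85, limma adjusted p = 0.0032), Tbx20 fell by 3.98 (SE 0.64, adjusted p = 0.00236) and Gata6 by 2.86 (SE 0.62, adjusted p = 0.0161). The others were Nkx2-5 at -3.74 (adjusted p = 0.0566), Gata4 at -3.14 (adjusted p = 0.106), Hand2 at -2.81 (adjusted p = 0.0863) and Eomes, whose arrays overlapped. With slide as a fixed or a random block, Nkx2-5, Gata4 and Hand2 passed as well, so that 6 of 7 genes were called lower, where 4.36% of all genes were with the fixed and 4.4% with the random block; over all 41 other analyses Nkx2-5 passed in 13, Hand2 in 7 and Gata4 in 6. The other 2 Tbx20 probes gave -3.72 and -2.92 and were called too.

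In the same step between the DOX arrays, 3 of 8 genes tested were called lower where 0.948% of all genes were, and all but Isl1 were above background on all 4 arrays. Hand1 fell by 5.62 (adjusted p = 0.00282), Tbx20 fell by 4.45 (adjusted p = 0.00183) and Isl1 was at least 3.52-fold lower (adjusted p = 0.0168). Gata6 was at -1.61 (adjusted p = 0.361). The interaction term, the DOX effect in HE1 minus that in HE2, did not pass for Gata6, at -1.25 with a 95% interval from -3.09 to 0.59 (adjusted p = 1.00). It did not pass for Isl1 either, with no size given since Isl1 was not well above background on either HE2 DOX array.

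Replicate 1 and replicate 2 of HE1 and HE2 lay on different slides, and each slide held both populations. Within them Gata6 differed by -3.37 and -2.35, Gata4 by -2.37 and -3.91, Hand2 by -2.78 and -2.84 and Eomes by 0.26 and -1.40. Within the slide of replicate 2 Hand1 differed by -3.58, Tbx20 by -3.20 and Nkx2-5 by -3.06; within the other slide they have no measured difference, since HE2 untreated replicate 1 was not well above background for these genes. The call was lost without HE1 untreated replicate 1 for Hand1, Tbx20 and Gata6, and for Gata6 also without HE1 untreated replicate 2 or HE2 untreated replicate 1. It was also lost for Hand1 with normexp or array quality weights, for Gata6 with median scaling or array quality weights, and for all 3 genes with a fit of only the groups compared (adjusted p up to 0.622). Fibroblast markers moved with this step: their mean was 2.03 and -1.34 in HE1 untreated and between -3.29 and -2.47 in HE2 untreated, with 7 of 8 and 4 of 8 markers above background on all arrays of the group. Smooth muscle markers averaged 2.00 and 1.18 in HE1 untreated and between -0.09 and 0.28 in HE2 untreated. Hematopoietic markers averaged between -1.07 and -0.83 in HE1 untreated and between 2.08 and 2.18 in HE2 untreated, and Spi1 was not above background on any array before HE2. Of the HE1 untreated arrays, the first had the higher Hand1 and Tbx20 and the higher fibroblast markers, and the second the higher Hand2, Gata4, Gata6 and Nkx2-5. The part of any marker list in the fall was not tested.

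**Figure D3:**
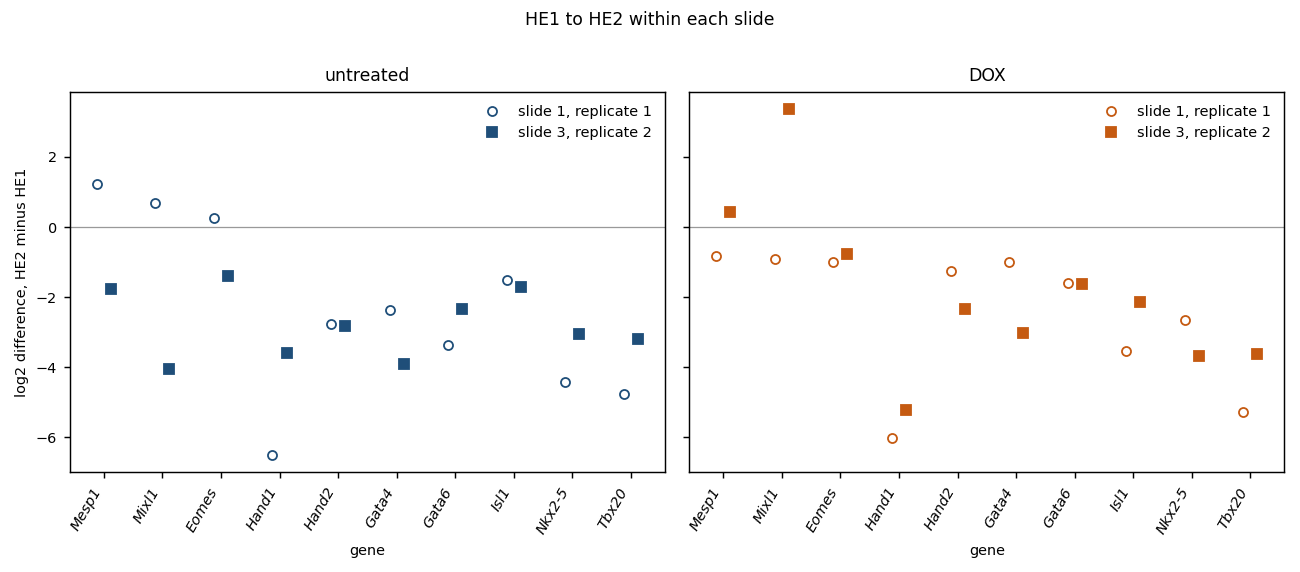
HE2 minus HE1 on the log2 scale for each gene within slide 1 (open circles, replicate 1) and slide 3 (filled squares, replicate 2), for untreated arrays (left) and DOX arrays (right). Hand1 lies at -3.58 within slide 3 without DOX and at -6.03 and -5.22 with it. Points of Hand1, Tbx20, Nkx2-5 and Isl1 within slide 1 without DOX, of Isl1 with DOX, and of Mesp1 and Mixl1 throughout rest on arrays not well above background and are no measured differences.

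From HE2 to HP none of 7 genes tested was called in limma (2 had an unadjusted p under 0.05), with 0.00394% of all genes called. Hand1 had the largest difference, 3.29 higher in HP, and did not pass (adjusted p = 0.316), with both HP arrays above both HE2 arrays, as for 15.4% of all genes. The same step under DOX gave none of 7 (3 at unadjusted p under 0.05), with 0% of all genes called. Over the 9 untreated comparisons, which share arrays, 17 of 78 tests of these genes were called (21.8%, against 3.31% of all gene tests), 21 without SM untreated replicate 2 and 9 with detection required in both groups, and over the 6 DOX steps 9 of 52 (17.3%, against 1.18%).

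DOX against untreated passed the limma test for none of the 10 genes in any population. The count was 0 of 10 genes tested in FLK1+ 5h, 0 of 9 in d1 BC, 0 of 9 in SM, 0 of 8 in HE1, 0 of 7 in HE2 and 0 of 7 in HP, where 0.0042%, 0%, 0.00839%, 0%, 0% and 0.0398% of all genes were called. With 2 arrays in most groups this limits what can be said, and the 95% intervals, which come from the limma fit, reached 2-fold in at least 1 direction for every gene tested. Of the 50 tests, 1 had an unadjusted p under 0.05. It was Gata6 in HE2, at -1.28 and 0.65 without DOX and 0.84 and 1.80 with it, a difference of 1.63 with an interval from 0.33 to 2.93 (limma adjusted p = 0.540). The Gata6 difference was 0.66 without HE2 untreated replicate 1, the array with the lowest 75th percentile, and 2.60 without replicate 2. Within slides the Gata6 DOX difference was 0.55 and 0.48 in d1 BC, 0.28 and 0.87 in SM, and 0.35 and 0.41 in HE1. It was 2.12 and 1.15 in HE2, 0.68 and 1.28 in HP, and -0.06 at 5 h. Gata6 was picked from the 10 genes after seeing these values, and no alternative called it. From d1 BC on, 56.2% to 68% of all genes had positive DOX differences.

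For the early factors the DOX effects at 5 h were 0.49 for Mesp1 (interval -1.93 to 2.92), 0.25 for Mixl1 (-2.03 to 2.53) and 0.15 for Eomes (-1.15 to 1.45), and all 3 turned negative with median scaling. The Mesp1 levels were 1.90 and 1.62 with DOX, both above the untreated arrays, as for 18.7% of all genes. Mixl1 was above background on both SM DOX arrays, at -3.50 and -4.25, and on no SM untreated array, at least 1.80-fold higher, and the test did not pass (adjusted p = 0.999); with normexp the difference was -0.033. Eomes in HP was at -2.87 and -1.84 with DOX, above both untreated arrays, as for 25.7% of all genes, with a difference of 1.18 (-0.12 to 2.48). Isl1 had its lowest p at 5 h, at -0.64 (-1.85 to 0.57). This difference rests on FLK1+ 5h untreated replicate 1, at 0.79, and was -0.014 without that array.

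For the later factors, Hand1 in HE1 had the largest DOX difference, 1.65 (-0.14 to 3.45), and without HE1 untreated replicate 2, at -0.79, it was 0.16. Within the slides the Hand1 difference was 0.43 and 2.88. The fibroblast markers of the HE1 arrays were at 2.03 and -1.34 untreated and 1.80 and 0.12 with DOX. Within each group replicate 1 was the higher for Hand1 and for these markers. In replicate 1 Hand1 was higher with DOX and the markers were lower. The part of these markers was not tested. In HE2, Nkx2-5 differed by 1.33 (-0.77 to 3.42), which became 0.19 without HE2 untreated replicate 1, where its probe was not above background, and 0.082 with normexp. Hand1 differed there by 1.08 (-0.71 to 2.87), with the same array not above background, Gata4 by 0.86 (-1.13 to 2.86) and Hand2 by 0.58 (-1.13 to 2.28), and Tbx20 by -0.04 (-1.38 to 1.31). In HP all 7 genes tested had positive differences, as had 68% of all genes. The median of the 7 was 0.42, and the median over all genes was 0.25. Hand2 turned negative with median scaling and Tbx20 in the authors' processed values. In d1 BC Hand1 differed by -0.72 (-2.51 to 1.07). Differences of the DOX effect between populations gave 0 of 34 tests called, with 0% of all genes called in each of the 4 interactions. Unadjusted p under 0.05 came for Eomes in HE2 minus HP, -1.94 (limma adjusted p = 0.920), and for Mixl1 in SM minus HE1, which has no size since 3 of its 4 groups were not above background.

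**Figure D4:**
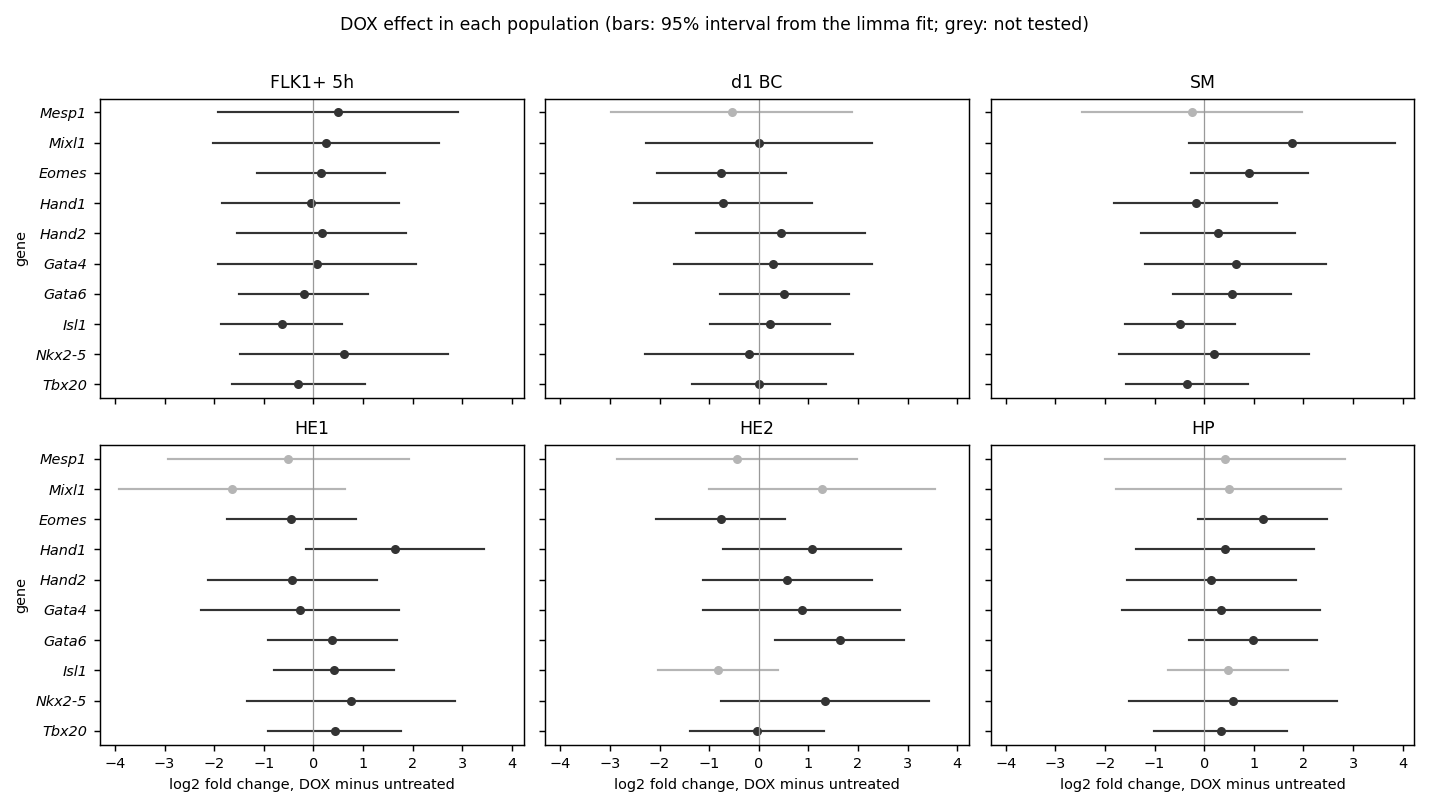
DOX minus untreated on the log2 scale for each gene in the 6 populations, with 95% intervals from the limma fit as bars and genes not tested in grey. The interval of Gata6 in HE2, 0.33 to 2.93, is the single one of a tested gene that leaves out 0.

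Other early mesoderm genes fell as well. Of a list of 20, 5 were called lower and none higher from FLK1+ to FLK1+ 5h, Gsc (-3.58), Lhx1 (-3.10), Mesp2 (-2.96) and Pdgfra (-2.61) among them, where 0.247% of all genes were lower, with a list median of -1.68 against -0.18 over all genes. From 5 h to day 1, 5 were lower against 0.882% of all genes, among them the streak factors Gsc (-5.02, above background on 1 of 2 d1 BC arrays) and T (-4.69), the ETS factor Etv2 (-4.18) and the NODAL antagonist Lefty2 (-3.99). From d1 BC to HE1, 6 of 19 tested were lower, with Wnt3 (-5.21), Fgf5 (-4.98), Evx1 (-4.64) and Nodal (-2.94), against 1.3% of all genes and with Fgf5 and Evx1 above background on 1 of 2 HE1 arrays, and from d1 BC to SM 1 of 18, Foxh1 (-2.15), against 0.0303%. Against FLK1+, 14 of 20 were lower in SM and 14 of 20 in HE1, where 2.52% and 4.76% of all genes were, with list medians of -3.09 and -4.26 and none higher. All 20 were above background on all FLK1+ arrays, 18 on all SM untreated arrays and 15 on all HE1 untreated arrays (Gsc on none). Some thus entered the test only through FLK1+, where they are high, so these counts are a description. From HE1 to HE2, Snai1 (-3.72) and Pdgfra (-3.20) were lower, 2 of 15, against 1.81% of all genes, each above background on 1 of 2 HE2 arrays.

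The next list holds 20 other cardiac transcription factors and cofactors. From FLK1+ to HE1, Zfpm2, which binds GATA factors, rose by 4.81 and Mef2c was at least 12.2-fold higher, while 3 fell, with Tbx3 (-3.17) and Tbx2 (-3.13) the largest, 5 of 18 tested, where 6.84% of all genes were higher and 4.76% lower. From FLK1+ to SM, Zfpm2 rose by 3.72 and Hey1 (-3.66), Tbx3 (-3.40) and Tbx2 (-2.59) fell, where 5.69% of all genes were higher and 2.52% lower. From HE1 to HE2 the forkhead gene Foxc2 (-5.44) and the Notch target Hey2 (-3.39) fell, 2 of 17 where 1.81% of all genes did, each above background on 1 of 2 HE2 arrays, with a list median of -1.01 against 0.04 over all genes. In the other untreated steps the calls were Tbx2 (-2.97) and Gata5 (-2.45) in the first 5 h (0.247% of all genes lower), Tbx1 from 5 h to day 1 (at least 5.22-fold lower, 0.882% of all genes lower), and Zfpm2 (2.83) and Myocd (-2.57) from d1 BC to HE1 (1.83% of all genes higher and 1.3% lower). Zfpm2 was above background on 1 of 2 FLK1+ arrays.

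Heart muscle genes moved in both directions. In the first 5 h, 4 of 17 tested were called higher, where 2.59% of all genes were, the natriuretic peptide genes Nppb (6.21) and Nppa (6.12), the sarcomere gene Mybpc3 (3.72) and the calcium release channel gene Ryr2 (at least 2.66-fold higher). Nppb and Mybpc3 were above background on 1 of 2 FLK1+ arrays. From FLK1+ to SM, 5 of 17 rose against 5.69% of all genes, including Mybpc3 (6.32), Myh7 (4.39) and Nppb (4.30), and the atrial light chain Myl7 fell (-4.26), and from FLK1+ to HE1, 3 of 15 rose, Mybpc3 (4.72), Tnnt2 (4.39) and Myh7 (3.20), and Myl7 was at least 99.6-fold lower, where 6.84% of all genes were higher and 4.76% lower. From d1 BC to HE1, 4 of 14 fell against 1.3% of all genes, Myl4 (-5.10), Nppa (-3.55), Nppb (-3.32) and Myl7, at least 75.6-fold lower. Myl7 also fell from d1 BC to SM (-3.87), with Nppa (-2.65), 2 of 17 against 0.0303% of all genes, and was at least 5.18-fold higher in SM than in HE1, 1 of 17 against 0.342%. Actc1, the cardiac actin, was the 1 gene of the list called from HE1 to HE2 (-5.04, above background on 1 of 2 HE2 arrays), 1 of 12 against 1.81% of all genes.

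Of 16 BMP pathway genes, a pathway that induces many of these factors in the embryo, 5 were lower and 1 higher in HE1 than in FLK1+, where 4.76% and 6.84% of all genes were, with Bmp7 (-5.29), Msx2 (-4.22), Msx1 (-4.17) and the receptor Bmpr2 (3.17). In SM, 5 were lower and 1 higher than in FLK1+, where 2.52% and 5.69% of all genes were, with Msx1 (-3.99), Bmp7 (-3.51), the signal transducer Smad1 (-2.39) and again Bmpr2 (1.98). Bmp7 fell from 5 h to day 1 (-3.13, 1 of 16 against 0.882% of all genes), and Bmp4 was higher in SM than in HE1 (2.37, 1 of 16 against 0.342%). From d1 BC to HE1, Msx2 (-4.19) and Bmp4 (-2.69) fell, 2 of 16 against 1.3% of all genes, and from HE1 to HE2 Bmp5 was at least 5.27-fold lower, 1 of 16 against 1.81%. In the steps between DOX arrays, no gene of the 4 lists was called from HE1 to HE2, where 0.948% of all genes were called lower. From 5 h to day 1 under DOX, 4 of 20 early mesoderm genes were lower against 0.745% of all genes, and from d1 BC to HE1 under DOX 5 of 19, with 6 of 16 heart muscle genes, against 1.59%. No gene of the 4 lists was called in a DOX comparison.

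The genes whose 13 group means were most like those of each factor, by Pearson r and given as a description since the points share arrays and include groups where Mesp1 and Mixl1 were dim, were Gsc (0.993) and Lefty2 (0.983) for Mesp1, Elf3 (0.968) for Mixl1, Hkdc1 (0.986) for Eomes and Fabp7 (0.974) for Isl1. They were Chpf (0.980) for Hand1, Pcdhb6 (0.953) for Hand2, Gnai1 (0.970) for Gata4, Zfp618 (0.975) for Gata6, Chd3 (0.929) for Nkx2-5 and Tmsb10 (0.977) for Tbx20. Among the factors themselves, Mesp1 and Mixl1 had an r of 0.951, Mixl1 and Eomes 0.949, Mesp1 and Eomes 0.925, and Nkx2-5 and Tbx20 0.892. Hand2 stood apart from the early factors, with -0.172 for Mesp1 and -0.271 for Eomes.

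In the sorted populations, replicates differed in the same way for several of these genes. Replicate 2 of SM, HE1, HE2 and HP, untreated and DOX, lay on a single slide. Of the 4 factors above background on all these arrays, Hand2 and Gata4 were highest in replicate 2 in 8 of 8 groups and Eomes and Gata6 in 7 of 8. The same 8 of 8 was seen for 24.6% of the 17649 genes that were above background on all these arrays. Of the factors that were not, Nkx2-5 was highest in replicate 2 in 8 of 8 groups and Tbx20 in 4, while Mesp1 was lowest in 8 of 8, Mixl1 in 6, and Hand1 and Isl1 in 5. Gata4 in HE1 DOX was at 1.76 and 4.71, and Hand2 in SM DOX at 1.70 and 3.43. In SM, replicate 2 had the higher endothelial markers, 1.88 untreated and 1.78 with DOX, against -0.90 and -0.69 untreated and -0.89 with DOX. It had the lower pluripotency markers there, -2.31 untreated and -3.21 with DOX, against 0.43 and -0.04 untreated and -0.45 with DOX. Fibroblast markers were lower in it too, 1.58 untreated and 1.57 with DOX, against 3.36 and 3.53 untreated and 3.47 with DOX. In HE1, endothelial markers in replicate 2 were 3.80 untreated and 3.03 with DOX, against 3.33 and 3.58. Endoderm markers, many of them dim, were higher in replicate 2 of each SM and HE1 group. In SM they were at -1.32 against -3.96 and -3.735 untreated and -2.42 against -3.97 with DOX. In HE1 they were at -1.67 against -2.90 untreated and -2.68 against -2.98 with DOX. The part of slide or of other cells in the replicate differences was not tested.

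**Figure D5:**
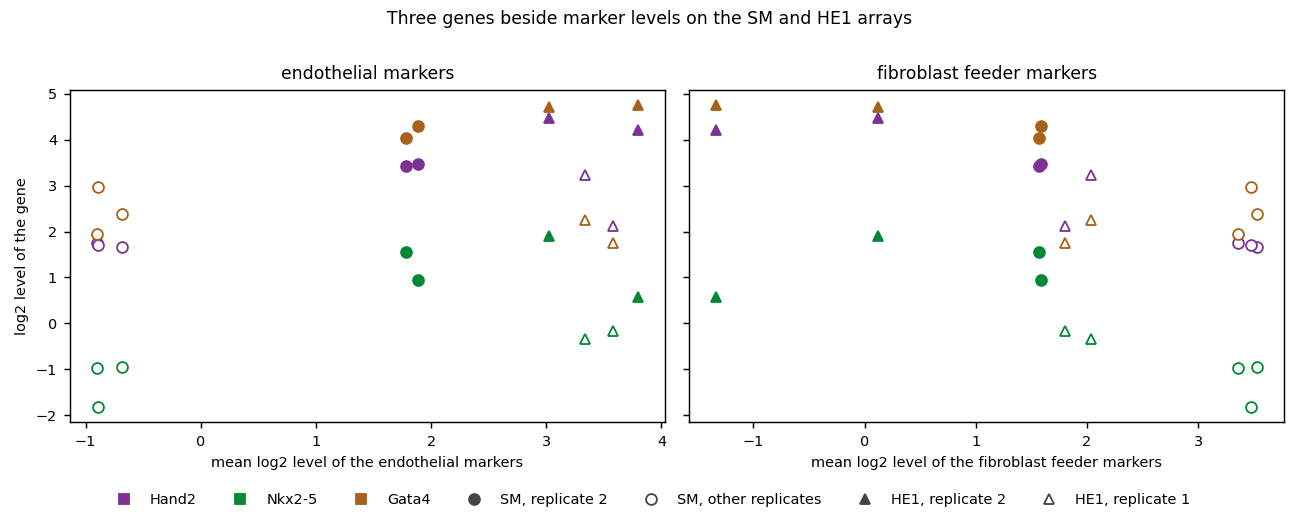
Log2 level of Hand2, Nkx2-5 and Gata4 on the SM (circles) and HE1 (triangles) arrays, with and without DOX, against the mean log2 level of 8 endothelial markers (left) and 8 fibroblast markers (right). Filled symbols are replicate 2, which is higher for all 3 genes within each group; in SM the endothelial markers of replicate 2 are at 1.78 and 1.88 and those of the other arrays between -0.90 and -0.69.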

How the data were processed

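RNA of 27 cell samples was hybridised to 1-colour Agilent arrays. The deposited scanner files hold signal intensities that the authors extracted with Agilent Feature Extraction (10.7.3.1 in the file headers, 10.7.1.1 in the submitters' processing notes), background-subtracted and not scaled between arrays. The authors also deposited log2 values normalised between arrays with limma, with medians from 5.98 to 6.00 per array and centring not stated; each of the 27 columns was closest to its own array, and they served as an alternative. All columns were mapped to a sample.

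The members and gene lists were chosen with earlier results of these data known, and the steps between DOX groups were added after seeing the data. Each array had 62976 spots. Control spots and outlier spots were left out, spots of the same probe were averaged (55681 probes, 26582 named through RefSeq accessions), and log2 signal minus the array's 75th percentile was taken. No spot was saturated, and no pair of arrays held identical values. The number of arrays limits the precision. The brightest probe stood for each gene. A gene entered a test if every array of 1 or more of the groups compared had its probe well above background. limma 3.58.1 in R 4.3.3 was fitted on 13 group means over all arrays (14 residual degrees of freedom), with no covariate and Benjamini-Hochberg adjustment within each comparison, after a test on simulated data. Where a group was above background on no array, a fold is the bright group's mean over the lowest signal well above background on the dim arrays, or the dim probe's own if higher. All 10 members are named with every group, up to 4 called genes with the largest change are named from each list, and for likeness the genes with the highest correlation over 13 group means. Alternatives covered background correction, scaling, the filter on dim probes, slide and replicate blocks, array weights and leaving out each array.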

Additional observations from a re-analysis of the deposited data

Results flagged for a closer look

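For Hand1, both d1 BC DOX arrays lay below both untreated arrays, a DOX difference of -0.72, and both HE2 DOX arrays lay above the values of both untreated arrays, a fitted difference of 1.08. The first minus the second is -1.80. HE2 untreated replicate 1, at -4.30, was not well above background for Hand1, and the lowest signal well above background on that array, -2.86, lies above both HE2 DOX arrays (-3.39 and -3.12), so the direction in HE2 is not settled for that array. Over all genes, 9.9% were lower on both DOX arrays in d1 BC and 20.4% higher in HE2. The difference between the populations was not tested, and neither DOX difference passed the limma test (adjusted p = 1.00 in d1 BC and 0.587 in HE2).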

How the results depend on the processing

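Of 685 recalculated values of the 17 called member differences, 645 stayed called, 40 missed the threshold and 0 changed sign. The falls of Mesp1, Mixl1, Eomes and Isl1 from FLK1+ to SM and to HE1 stayed called in each alternative in which they were tested, 39 to 41 for each; with detection required in both groups, of these falls only those of Eomes and that of Isl1 to SM were tested. Of 400 values of 10 DOX differences none was called and 4 changed sign: Mesp1 at 5 h with median scaling (-0.14), Mixl1 in SM with normexp (-0.033), Hand2 in HE2, -0.063 to 1.21 without single arrays (below 0 without HE2 DOX replicate 2), and Tbx20 in HE1, -0.15 to 1.01 (below 0 without HE1 untreated replicate 2). Member calls between untreated groups (17) became 30 with the authors' processed values, 9 with detection required in both groups, 26 with slide as a random block, 11 with fits of only the groups compared, 26 with array quality weights and 13 to 21 without single arrays. All-gene calls there (6975) became 11513, 3069, 11833, 3465 and 16833 in the same order, and 3143 (without FLK1+ untreated replicate 1) to 7954 without single arrays. All-gene DOX calls (13) became 39 with normexp, 51 with quantile normalization, 36 with median scaling, 165 with the authors' values, 8 without the filter, 0 with detection in both groups, 26 with slide as a fixed and 78 as a random block, 0 with only the groups compared, 68 with quality weights and 1 to 63 without single arrays (lowest without HP untreated replicate 2, highest without FLK1+ 5h untreated replicate 2). Member DOX calls and interactions were 0 in every alternative run. The causes were not tested. Median scaling moved the median of all genes furthest from FLK1+ to HE1, from 0.081 to -0.91, and at 5 h it made all 10 DOX differences negative (median of all genes -0.68), against 3 to 5 under the other scalings.

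The replicate numbers are only shared: deviations of same-numbered arrays correlated at -0.11 at 5 h, 0.27 to 0.64 in the other DOX comparisons and -0.47 to 0.74 in the steps between populations. With a replicate block, 24 member differences and 7373 of all genes between untreated groups, no member DOX difference and 5 genes in the DOX comparisons were called; with the 5 h pairing crossed, 6 genes were. Probe signal limits Mesp1 and Mixl1, which were above background on 11 and 12 of 27 arrays.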
